A study of Homo sapiens with 6 samples.

Results

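Histone chaperones escort histones between their synthesis, DNA and the nucleosome. FACT, a dimer of SSRP1 and SUPT16H, opens and rebuilds nucleosomes in front of and behind RNA polymerase II and the replication fork, and SUPT6H (the SPT6 homologue) does related work on elongating polymerase. CHAF1A and CHAF1B are subunits of CAF-1, which deposits new H3-H4 on replicated DNA. ASF1A and ASF1B hand H3-H4 to CAF-1 and to HIRA, and NASP holds soluble H3-H4 in reserve. HIRA and DAXX place the replacement histone H3.3. The 10 genes described here are SSRP1, SUPT16H, SUPT6H, CHAF1A, CHAF1B, ASF1A, ASF1B, NASP, HIRA and DAXX, taken by gene name, and each has 1 row among the 14959 genes of the deposited table.

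They were measured by RNA-seq in UM-SCC1, an established HNSCC (head and neck squamous cell carcinoma) line of human origin. Of the 6 libraries, 3 came from cells that had received miR-204-5p mimics and 3 from cells that had received control mimics. A mimic is a synthetic double-stranded RNA that stands in for the mature miRNA. Both groups received mimics with the same lipid reagent, and the study's methods give 48 h of culture after transfection. A single cell line was used, and the mimics raise the miRNA by transient transfection, so the groups model neither its native level nor other tumors. The libraries are numbered as replicates without mention of separate cultures. The p-values thus weigh a difference only against the spread between these libraries, which may be technical. Levels are FPKM, the number of sequenced fragments per kilobase of exon per 1e6 fragments, as the authors computed them.

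The members were selected on the values of this same comparison, in which SSRP1 stood out as an abundant gene lower with miR-204-5p mimics. Their levels and differences are therefore given as a description, and a call on a member states only where it falls under the rule applied to every gene, not evidence for that member. A difference is the fitted mean of log2(FPKM + 1) with miR-204-5p mimics minus that with control mimics. It is given with its standard error (SE) from limma, a linear model fitted over all genes together, and adding 1 makes it smaller for genes at low FPKM. A gene was called where the Benjamini-Hochberg adjusted p-value over all 14959 genes was under 0.05.

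The sequence below is the mature miRNA (RefSeq, GRCh38.p14, chr9:70810031-70810052, minus strand). Its seed, bases 2 to 8, is in capitals because pairing of these bases with the 3′UTR of an mRNA is the known base of miRNA repression.
hsa-miR-204-5p: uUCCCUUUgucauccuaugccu

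For every gene, the longest 3′UTR annotated by GENCODE 29 (GRCh38) was searched for matches to the seed, a feature that the choice of members did not use. The words are nested and were searched on the transcript strand. The 8mer is AAAGGGAA, the 7mer-m8 AAAGGGA, the 7mer-A1 AAGGGAA and the 6mer AAGGGA. Each gene was put in the class of its best match in that order. A gene with both a 7mer-m8 and a 7mer-A1 thus counts as 7mer-m8. The windows below hold the 3′UTR matches of the members, 28 bases each, with the match in capitals, T written for U, and named by gene and by position within the 3′UTR.
SSRP1 position 399: atgatttaatAAAGGGAActgactttgg
CHAF1B position 1591: tgagaaatctAAGGGAAaaaactttccc
CHAF1B position 1747: ctcctaggttcAAGGGAttctcctgcct
NASP position 23: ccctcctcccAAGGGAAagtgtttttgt
SUPT16H position 207: attcagatggcAAGGGAggaggtgttct
SUPT16H position 810: tttatatctggAAGGGAcaagtcatgcc
SUPT16H position 864: aagagaagaggAAGGGAggccatatcta
DAXX position 80: gatgactgaggAAGGGAtggactaagct

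SSRP1 was the only member with the 8mer in its 3′UTR, at chr11:57326001-57326008 (minus strand) in exon 17, the last exon. Its 3′UTR is 422 bases long, so the match lies near the end of the message. The polyadenylation signal AATAAA runs into the match in the window above, sharing the leading bases of the 8mer. CHAF1B and NASP carried a 7mer-A1. The CHAF1B match is at chr21:36417957-36417963 in exon 14, in a 3′UTR of 2649 bases, and the NASP match at chr1:45618164-45618170 in exon 13 of ENST00000537798. SUPT16H had 3 matches of the 6mer class in 1201 bases and DAXX a single 6mer in 188 bases. SUPT6H, CHAF1A, ASF1A, ASF1B and HIRA had none of these words in the 3′UTR searched. Of all genes with a 3′UTR, 8.60% held the 8mer, 9.83% a 7mer-m8, 8.66% a 7mer-A1 and 12.3% a 6mer as their best match. In the coding sequence of the listed transcript, CHAF1A held a pair of 8mers, in exons 3 and 5. A coding 8mer, single or repeated, was held by 6.02% of genes. A match is a run of letters and not a shown binding site.

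By inferred depth the libraries held 13.1, 16.0 and 15.6 M (1e6) fragments (miR-204-5p mimics replicates 1 to 3) and 14.1, 13.9 and 16.4 M (control mimics replicates 1 to 3). The inference is approximate, since 23.5% to 26.7% of the low values used were whole multiples of the step found, against 3.55% to 5.68% at a wrong step. Most of the low values thus did not fall on the step. The step was searched only within a preset range, so a depth outside that range could not have been found. All fragment numbers and counting errors given here rest on this depth. SSRP1 rested on about 4069 to 12428 fragments per library, and CHAF1B, the lowest member, on about 191 to 310, which leaves a counting error of 7.23% at its lowest. These figures cover counting error alone. All 10 squamous epithelial markers examined were present, with group means from 1.24 FPKM (KRT6A) to 272 FPKM (KRT17). Of the markers of leukocytes, endothelium and fibroblasts, 8 of 10 averaged under 1 FPKM. COL1A1 reached a group mean of 9.46 FPKM and LYZ 4.14, and DCN has no row here. The summed squamous markers were 604 to 701 FPKM with miR-204-5p mimics and 816 to 836 with control mimics, and the summed other markers 15.5 to 16.6 and 13.5 to 15.2. Of the squamous markers 7 were called lower (TP63 and DSG3 both by −1.01) and 2 higher (CDH1 by 0.39 and KRT6A by 0.81), and of the other markers 3 were called higher (VWF, PDGFRB and COL1A2, each under 1 FPKM). Over all genes of the table, 16.8% were called lower and 23.9% higher. The part of these markers in the results below was not tested. In bulk RNA, fewer expressing cells and less RNA per cell cannot be told apart.

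Across the whole table, 2520 genes were called lower with miR-204-5p mimics and 3578 higher, 16.8% and 23.9% of the 14959 genes tested. With other scalings of the libraries the 2 directions came closer, to 2885 lower and 3080 higher with equal sums. Of the 10 members, 2 were called lower (SSRP1 and SUPT6H) and 3 higher (SUPT16H, CHAF1B and ASF1B), and the other 5 were not called. The same 5 genes were those whose FPKM values did not overlap between groups, a separation that 22.7% of all genes showed downward and 30.9% upward. Nothing is read from these shares, because the comparison itself chose the members. The median difference of the 10 members was 0.0047, against 0.032 over all genes.

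**Figure D1:**
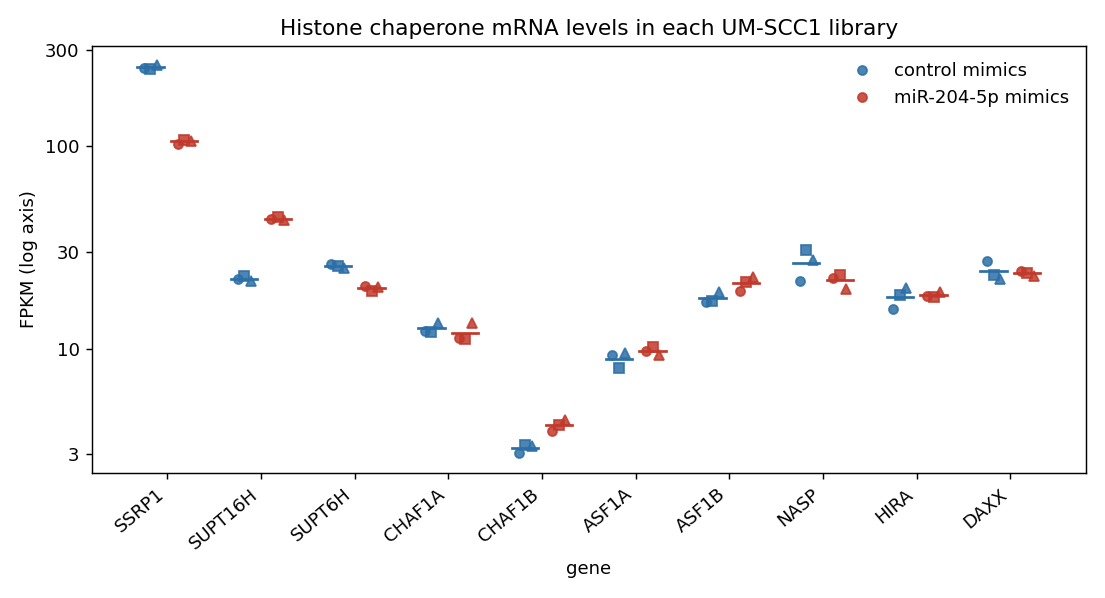
FPKM (log axis) of each of the 10 chaperone genes in the 3 control mimic libraries (blue) and the 3 miR-204-5p mimic libraries (red); circles, squares and triangles are replicates 1, 2 and 3 and lines are group means. SSRP1 sits near 245 FPKM in blue and 106 in red, SUPT16H moves from 22.2 up to 43.9, and most other genes stay between 8 and 31 FPKM, with CHAF1B lowest at 3 to 5.

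FACT was the place of the largest differences among the members, and its subunits went in opposite directions. SSRP1 (ENSG00000149136, listed transcript at chr11:57325985-57335877, minus strand, 17 exons) is the HMG-box subunit that contacts DNA. It measured 103, 108 and 106 FPKM in the 3 libraries of the miR-204-5p mimics and 243, 241 and 251 FPKM in those of the control mimics. Every mimic library lay far below every control library. The group means were 106 ± 2.29 (SD, n = 3) and 245 ± 5.42 FPKM (SD, n = 3), a level 2.32 times higher with control mimics and a difference of −1.21 (SE 0.0350). In control libraries SSRP1 was the 128th most abundant gene of the table. Of these 128 genes, 26 were called lower and 51 higher, where 16.8% and 23.9% of all genes were called. Downward, 2 differed by as much as SSRP1 or more, SSRP1 itself and KRT13 (difference −1.25). KRT13, a keratin of stratified epithelium, is named here after its values had been seen.

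SUPT16H (ENSG00000092201, listed transcript at chr14:21351472-21384266, minus strand, 26 exons) encodes the larger FACT subunit, which binds H2A-H2B. Its FPKM values were 43.7, 44.8 and 43.0 with miR-204-5p mimics against 22.1, 22.9 and 21.5 with control mimics. The groups were again fully apart, this time with the mimic libraries above. The means of 43.9 ± 0.899 and 22.2 ± 0.695 FPKM (SD, n = 3 each) gave a ratio of 1.98 and a difference of 0.95 (SE 0.0390). A share of 8.52% of the 50-base words in SUPT16H transcripts also occurs in the pseudogene SUPT16HP1, and reads from those stretches could be assigned to either gene.

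The proportion of the subunit messages within each library changed accordingly. SSRP1 exceeded SUPT16H 2.36, 2.40 and 2.46 times in the 3 miR-204-5p mimic libraries and 11.0, 10.5 and 11.7 times in the 3 control mimic libraries. SSRP1 was the more abundant message per length in all 6, and the ranges of the ratio lay far apart. On the log2 scale the ratio was 1.27 ± 0.0306 with miR-204-5p mimics against 3.47 ± 0.0754 with control mimics (SD, n = 3 each), a difference of −2.20. The sum of the subunits was 149 ± 2.85 against 267 ± 4.78 FPKM, and the part of that sum due to SSRP1 was 70.6% ± 0.439 against 91.7% ± 0.397 (SD, n = 3 each). The ratio uses 2 values from the same library and so does not depend on how libraries are scaled to each other.

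**Figure D2:**
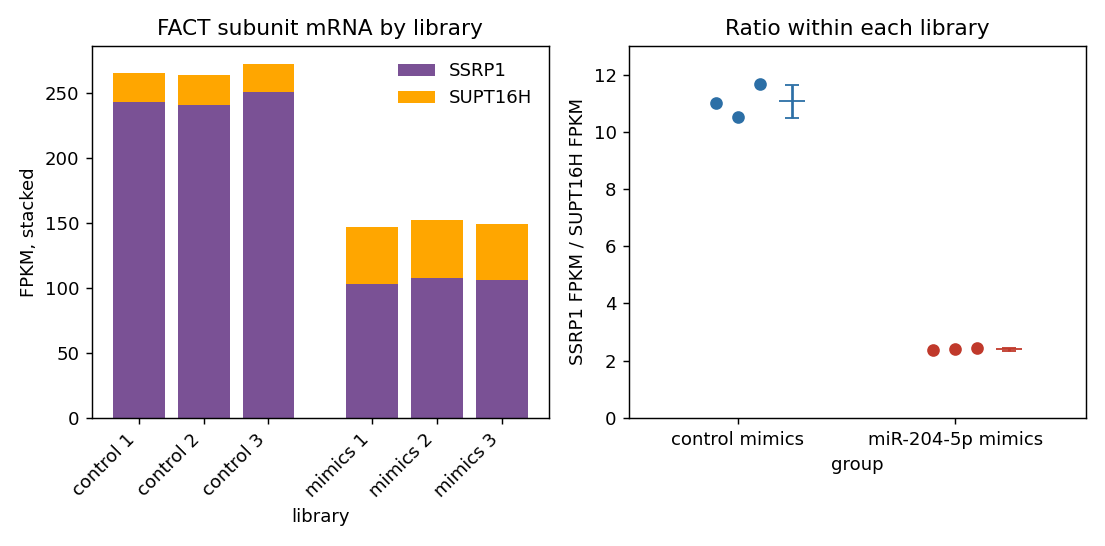
Left, stacked FPKM of SSRP1 and SUPT16H in each library; right, SSRP1 FPKM divided by SUPT16H FPKM in each library (points), with the mean and SD beside them. The ratio lies between 10.5 and 11.7 in the 3 control mimic libraries and between 2.36 and 2.46 in the 3 miR-204-5p mimic libraries.

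SUPT6H (ENSG00000109111, listed transcript at chr17:28662091-28702684, plus strand, 37 exons) was lower with miR-204-5p mimics by a smaller amount than SSRP1. Its values were 20.4, 19.4 and 20.2 FPKM with miR-204-5p mimics and 26.1, 25.5 and 24.9 FPKM with control mimics. No mimic library reached a control library. The group means were 20.0 ± 0.555 and 25.5 ± 0.576 FPKM (SD, n = 3 each), a difference of −0.34 (SE 0.0399).

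The CAF-1 subunits did not move alike. CHAF1A (ENSG00000167670, listed transcript at chr19:4402662-4443392), the large subunit, measured 11.2, 11.1 and 13.4 FPKM with miR-204-5p mimics and 12.2, 12.1 and 13.4 FPKM with control mimics. The groups overlapped, and the difference of −0.07 (SE 0.0817) was within the spread between replicates. CHAF1B (ENSG00000159259, listed transcript at chr21:36385378-36419015), the WD-repeat subunit, was the least abundant member, at 3.92, 4.19 and 4.45 FPKM with miR-204-5p mimics and 3.03, 3.32 and 3.28 FPKM with control mimics. All mimic values were above all control values, with a difference of 0.30 (SE 0.0665). This is the member with the 7mer-A1 at position 1591. The ratio of CHAF1A to CHAF1B was 2.85 ± 0.184 with miR-204-5p mimics against 3.92 ± 0.234 with control mimics (SD, n = 3 each).

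Of the H3-H4 carriers, ASF1B, the ASF1 form tied to dividing cells, was higher and ASF1A was not separated. ASF1B (ENSG00000105011, listed transcript at chr19:14119509-14136956) measured 19.3, 21.3 and 22.6 FPKM with miR-204-5p mimics and 17.0, 17.1 and 19.0 FPKM with control mimics, a difference of 0.24 (SE 0.0712). The lowest mimic library exceeded the highest control library by a narrow margin. Its call was lost without replicate 2 or replicate 3 of the miR-204-5p mimics (differences 0.23 and 0.19) and without replicate 1 or 2 of the control mimics (0.21 and 0.22), each left out alone. ASF1A (ENSG00000111875, listed transcript at chr6:118894220-118909167) was at 9.71, 10.2 and 9.33 FPKM with miR-204-5p mimics and 9.27, 8.01 and 9.46 FPKM with control mimics, which overlap. No 50-base word of the ASF1A transcripts occurs in ASF1B transcripts, so stretches of that length tell the paralogs apart.

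NASP (ENSG00000132780, listed transcript at chr1:45583846-45615131) varied most among the members. It read 22.3, 23.2 and 19.7 FPKM with miR-204-5p mimics and 21.6, 30.8 and 27.4 FPKM with control mimics. Control replicate 1 fell among the mimic libraries, and the difference was −0.27 (SE 0.129), not called. Without that control library NASP was called lower, with a difference of −0.40, and without control replicate 2 the difference was −0.16. Of its 50-base words, 5.84% also occur in transcripts of 325 other genes.

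The H3.3 chaperones HIRA and DAXX showed no separation. HIRA (ENSG00000100084, listed transcript at chr22:19330698-19431696) measured 18.1, 18.0 and 19.1 FPKM with miR-204-5p mimics and 15.8, 18.4 and 19.9 FPKM with control mimics, a difference of 0.04 (SE 0.0831). Its level is uncertain, since 69.2% of its exon bases also belong to exons of C22orf39 on the same strand. C22orf39 measured 4.21 ± 0.240 FPKM with miR-204-5p mimics and 2.80 ± 0.249 FPKM with control mimics (SD, n = 3 each), a difference of 0.46 (limma adjusted p = 0.00351). DAXX (ENSG00000204209, listed transcript at chr6:33318558-33323010) was at 24.2, 23.5 and 22.8 FPKM with miR-204-5p mimics and 27.1, 23.0 and 22.0 FPKM with control mimics. Its groups overlapped throughout, with a difference of −0.03 (SE 0.0790), and 15.6% of its exon bases are shared with AL662820.1.

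In control libraries the members ranked SSRP1, NASP, SUPT6H, DAXX, SUPT16H, HIRA, ASF1B, CHAF1A, ASF1A and CHAF1B by mean FPKM. From NASP through SUPT16H each neighbour overlapped the next, as did HIRA and ASF1B, so that order is not resolved by 3 libraries. With miR-204-5p mimics the order was SSRP1, SUPT16H, DAXX, NASP, ASF1B, SUPT6H, HIRA, CHAF1A, ASF1A and CHAF1B. SUPT16H stood alone in second place there, and DAXX, NASP, ASF1B and SUPT6H overlapped each with the next. These orders use FPKM, which is already per kilobase of merged exons.

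**Figure D3:**
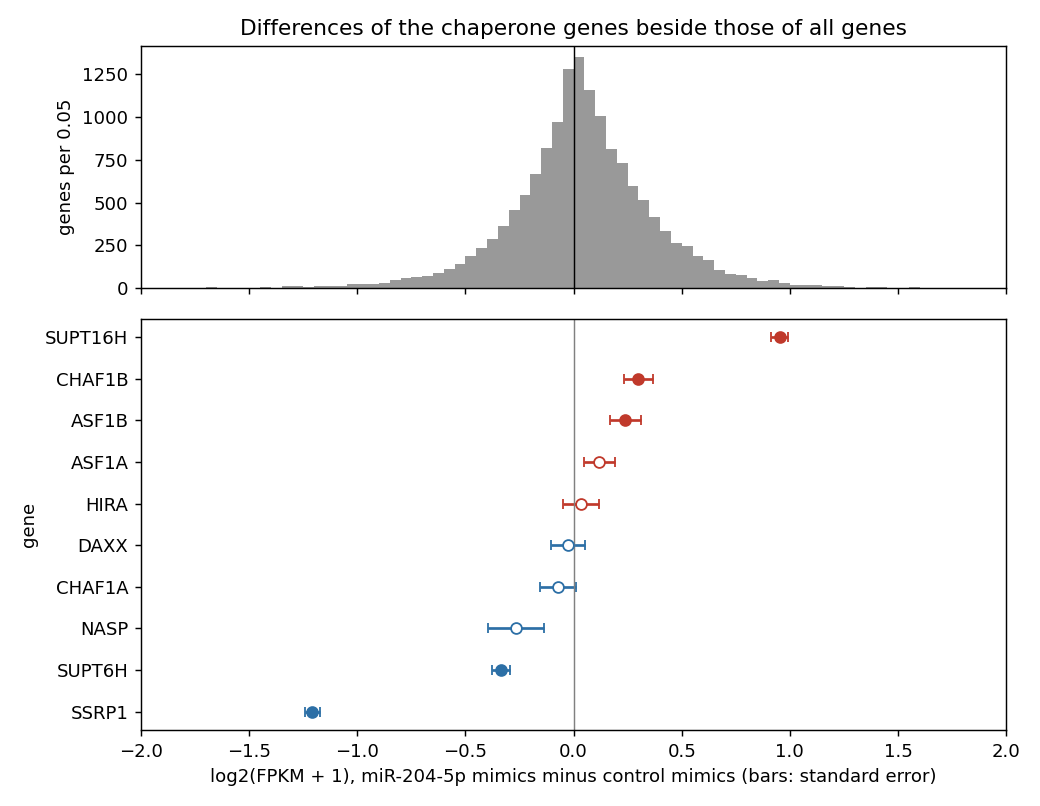
Top, number of genes by difference in log2(FPKM + 1), miR-204-5p mimics minus control mimics, in bins of 0.05 for all genes (9 genes beyond 2 in either direction are not drawn); bottom, the same difference for each chaperone gene with its standard error, filled where called. SSRP1 at −1.21 and SUPT16H at 0.95 lie at opposite ends, and the other 8 genes lie between −0.34 and 0.30.

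The partners of the members came from lists written from general knowledge, but chosen with earlier results of these data known. The shares and p-values of these lists are therefore given as a description. The partners are named here for their known pairing, in part after their values had been seen. The list of other histone chaperones held 33 genes with rows, of which 2 were called lower and 12 higher. As shares this is 6.06% lower and 36.4% higher, against 16.8% and 23.9% of all genes. The median difference was 0.13, against 0.03 over all genes. The counts moved with the scaling of the libraries, to 4 lower and 9 higher with FPKM scaled to equal sums and to 6 lower and 10 higher with equal medians. Among those linked to ASF1, the replication fork proteins TONSL and MCM2 were higher, TONSL from 12.2 ± 0.748 to 16.0 ± 0.983 FPKM (difference 0.37, limma adjusted p = 0.00527) and MCM2 from 22.4 ± 1.38 to 33.5 ± 4.35 FPKM (difference 0.56, limma adjusted p = 0.00540, SD, n = 3 each). MCM2 shares 25.9% of its exon bases with the opposite-strand gene AC023593.1. RBBP7 and RBBP4 are WD-repeat histone binders, and RBBP4 belongs to CAF-1. RBBP7 was higher by 0.48 (limma adjusted p = 0.00869), whereas RBBP4 had a difference of −0.27 with overlapping groups (limma adjusted p = 0.163).

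The other genes with the largest called differences on that list were NPM3, IPO4, ANP32E and SPTY2D1. NPM3, a nucleoplasmin, went from 61.8 ± 2.72 FPKM with control mimics to 109 ± 6.78 with miR-204-5p mimics (SD, n = 3 each), a difference of 0.81 (limma adjusted p = 0.000164). The importin IPO4, which carries H3-H4 with ASF1 into the nucleus, differed by 0.67 (limma adjusted p = 0.00159), but 88.7% of its exon bases are shared with AL136295.4 on the same strand, which was itself higher by 0.34 (limma adjusted p = 0.0448). SPTY2D1, the SPT2 homologue that binds H3-H4, differed by 0.53 (limma adjusted p = 0.000896). ANP32E, which removes H2A.Z, differed by 0.57 (limma adjusted p = 0.0371) with a wide spread of 25.6 ± 6.19 FPKM against 16.6 ± 1.10 (SD, n = 3 each), and its call was lost on leaving out any single library except replicate 1 of the miR-204-5p mimics. The 2 called lower were ATRX, the partner of DAXX, by −0.35 (limma adjusted p = 0.00187), and TSPYL1, a NAP family protein, by −0.28 (limma adjusted p = 0.00281). The HIRA partners UBN1, UBN2 and CABIN1 were not called, with differences of −0.08, −0.18 and −0.23 (limma adjusted p = 0.338, 0.0797 and 0.0730).

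Of 23 genes that work with FACT and SUPT6H in transcription elongation, 6 were called lower and 3 higher, with a median difference of −0.02. These shares are 26.1% lower and 13% higher, against 16.8% and 23.9% of all genes. CCNT1, the cyclin of P-TEFb, fell from 9.35 ± 0.258 to 6.50 ± 0.0406 FPKM (difference −0.47, limma adjusted p = 0.000582, SD, n = 3 each). Its kinase CDK9 was called in the other direction, from 34.4 ± 0.996 to 41.2 ± 1.19 FPKM (difference 0.25, limma adjusted p = 0.00328, SD, n = 3 each), and is named here after its values had been seen. SETD2, the H3K36 methyltransferase that SUPT6H helps recruit, fell from 14.8 ± 0.611 to 10.8 ± 0.427 FPKM (difference −0.42, limma adjusted p = 0.00121, SD, n = 3 each). IWS1, which binds SUPT6H directly, had overlapping groups and a difference of −0.03 (limma adjusted p = 0.682). The subunits of DSIF, SUPT5H and SUPT4H1, were called in opposite directions, SUPT5H by −0.18 (limma adjusted p = 0.0171) and SUPT4H1 by 0.72 (limma adjusted p = 0.00420). SUPT4H1 shares 64.7% of its exon bases with AC004687.2 on the same strand.

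Casein kinase 2 copurifies with FACT. Its catalytic subunit CSNK2A2 fell from 39.2 ± 0.584 to 30.6 ± 1.48 FPKM (difference −0.35, limma adjusted p = 0.00135, SD, n = 3 each), and CSNK2A1 was not called (difference 0.16, limma adjusted p = 0.0942). The regulatory subunit CSNK2B was listed at 54.4 ± 1.05 FPKM with miR-204-5p mimics against 25.3 ± 0.798 with control mimics (SD, n = 3 each), a difference of 1.07 (limma adjusted p = 2.95e-05). That value is uncertain, because 48.2% of its exon bases are shared with AL662899.2 on the same strand, which went from 18.5 ± 0.337 to 0.0515 ± 0.0459 FPKM (SD, n = 3 each), and how the reads were split between them is not known.

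Of 26 S-phase genes, listed because CAF-1, ASF1B and NASP supply replicating chromatin, 14 were called higher and 1 lower. That is 53.8% higher and 3.85% lower, against 23.9% and 16.8% of all genes. The median difference was 0.29. With equal sums, equal medians or quantile normalization, 12 were called higher. With single libraries left out, 10 to 14 were. Thymidylate synthase TYMS went from 16.1 ± 1.55 to 32.7 ± 1.48 FPKM (difference 0.98, limma adjusted p = 0.000195, SD, n = 3 each). Of its exon bases, 58.2% lie opposite ENOSF1, which was also higher by 0.40 (limma adjusted p = 0.00221). The helicase genes MCM3 and MCM7 and CDC45, a further part of the replicative helicase, differed by 0.57, 0.55 and 0.56 (limma adjusted p = 0.000767, 0.000164 and 0.000465). PCNA, the clamp to which CAF-1 binds, differed by 0.33 (limma adjusted p = 0.00403). The gene called lower was CCNE1, by −0.34 (limma adjusted p = 0.0415), and that call was lost when any one of the 6 libraries was left out. MCM2 stands on this list and on that of the chaperones, and without it 13 of 25 S-phase genes were called higher.

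Of 12 replacement and linker histone genes, the cargo of these chaperones, 2 were called lower and 1 higher, with a median difference of 0.03. The share called lower, 16.7%, was near the 16.8% of all genes, and 8.33% were called higher against 23.9%. H2AFV, one of the genes for H2A.Z, fell from 38.0 ± 1.28 to 22.5 ± 0.897 FPKM (difference −0.73, limma adjusted p = 0.000114, SD, n = 3 each), and H2AFX, for H2A.X, fell from 65.4 ± 1.38 to 49.8 ± 1.90 FPKM (difference −0.39, limma adjusted p = 0.000656, SD, n = 3 each). The linker histone H1FX rose from 182 ± 5.71 to 215 ± 4.35 FPKM (difference 0.24, limma adjusted p = 0.00334, SD, n = 3 each), with 22.9% of its exon bases opposite H1FX-AS1. The second H2A.Z gene, H2AFZ, stood at 245 ± 5.08 and 238 ± 7.73 FPKM with overlapping groups (difference 0.05, limma adjusted p = 0.388, SD, n = 3 each). The H3.3 genes H3F3A and H3F3B, whose product HIRA and DAXX carry, were not called (differences 0.21 and 0.06, limma adjusted p = 0.209 and 0.752). These were named after their values had been seen.

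**Figure D4:**
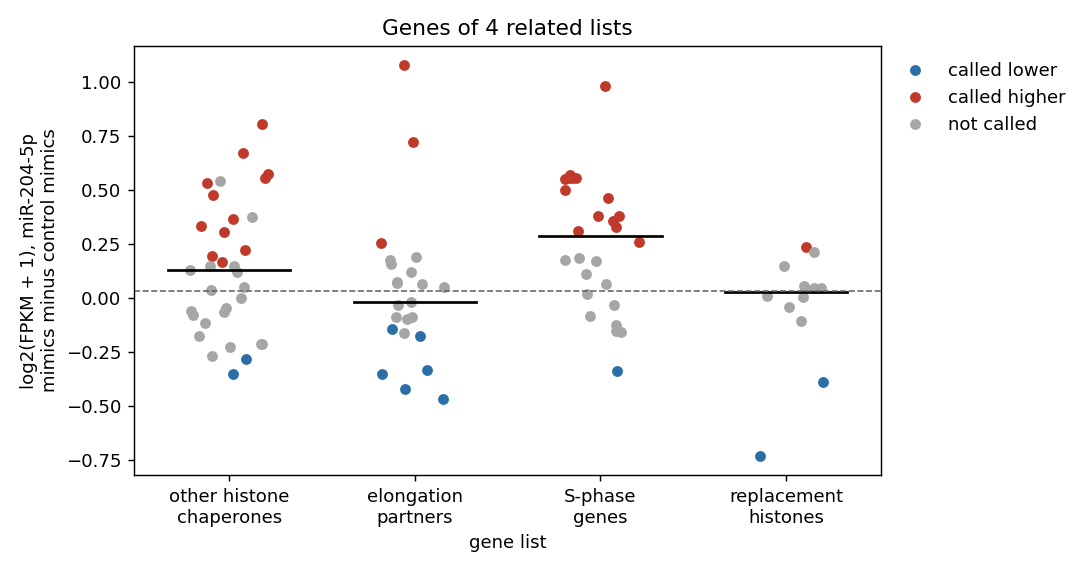
Difference in log2(FPKM + 1), miR-204-5p mimics minus control mimics, of each gene in 4 lists, colored where limma called it higher (red) or lower (blue); black bars are list medians and the dashed line is the median of all genes, 0.03. S-phase genes have a median of 0.29 with 14 of 26 called higher, and elongation partners a median of −0.02 with 6 of 23 called lower. Over all genes, 23.9% were called higher and 16.8% lower.

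Set beside the sequence classes, genes with a mean of at least 1 FPKM had a median difference of −0.14 with an 8mer (961 genes), −0.06 with a 7mer-m8 (1133), −0.02 with a 7mer-A1 (992), 0.02 with a 6mer (1442) and 0.09 with no match (6880). SSRP1 therefore lay in the class with the lowest median, and 17 of its 961 genes, SSRP1 included, differed by as much as SSRP1 or more downward. SUPT16H, in the 6mer class, lay 0.95 above 0 where the class median was 0.02. SUPT6H, called lower, had no 3′UTR match, and its 3 matches lie in the coding sequence. Coding matches of 7 bases were also found in SSRP1, in SUPT16H and CHAF1B, both called higher, and in ASF1A, NASP and HIRA, which were not called. The NASP match is in ENST00000537798, the transcript with its longest 3′UTR. In these classes the difference is the contrast that chose the members, so their place is a description.

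**Figure D5:**
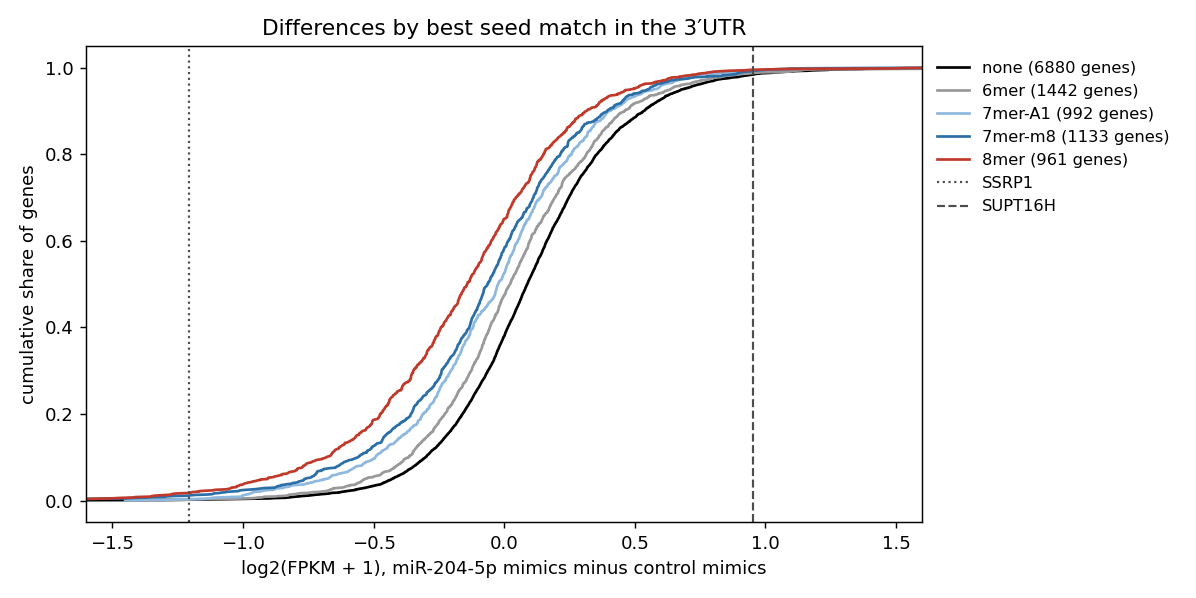
Cumulative share of genes (mean of at least 1 FPKM) by difference in log2(FPKM + 1), miR-204-5p mimics minus control mimics, for the best seed match in the 3′UTR. Vertical lines mark SSRP1 (dotted) and SUPT16H (dashed). The 8mer curve lies farthest left with a median of −0.14 and the curve of genes with no match farthest right at 0.09, and SSRP1 at −1.21 is in the lower tail of its class.

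Over the 6 libraries, the 5 genes whose centred log2(FPKM + 1) values lay nearest to those of SSRP1, by root mean square distance, were MMGT1 (0.0319), CHMP3 (0.0520), ABCF1 (0.0533), AK4 (0.0554) and IGF2R (0.0566). They were less abundant than SSRP1, from 6.38 to 6.63 FPKM for MMGT1 with miR-204-5p mimics and 15.4 to 17.0 FPKM with control mimics. MMGT1, AK4 and IGF2R held an 8mer in the 3′UTR, CHMP3 a 7mer-m8 and ABCF1 none of the words. In all, 38 genes of the table lay within 0.1 of SSRP1. Since the 6 libraries form 2 groups, this nearness states little more than a like difference between them.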

How the data were processed

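RNA-seq covered 3 UM-SCC1 libraries per group. The authors deposited FPKM per gene and library, and the submitters' processing notes name HISAT2, StringTie and hg38 without versions. Their own edgeR log ratios, p-values and FDR stand in the same table and were not used. Of 14959 listed transcripts, 14951 are in GENCODE 29, and 14847 have the same start and end there. For 96.0% of 12508 genes, FPKM times the merged exon length of coding and nonsense-mediated decay transcripts gave whole units of the sixth decimal (tolerance 0.02) in all 6 libraries, against 4.41% with the listed transcript's length, so values are per base of merged exons. Counts are not part of the table, and approximate fragment numbers were inferred from the FPKM step that best matched low values within a preset range.

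Values of log2(FPKM + 1) were fitted over 14959 genes by limma (version 3.58.1, in R 4.3.3) with lmFit, eBayes with trend, group as the only term and no filter. P-values were two-sided, with Benjamini-Hochberg adjustment and a threshold of 0.05. The fit was tested on simulated data. An exact permutation test of 3 against 3 cannot go below p = 0.1, so none was run. Python 3.11.15 with pandas 2.3.3, numpy 2.4.6 and matplotlib 3.10.9 served for the annotation and plots. Overlaps came from GENCODE 29 exons and shared 50-base words from its transcripts, on either strand. Whether reads were counted by strand is not given in the sources used here.

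The members and gene lists were chosen with earlier results of these data known. Named were the 10 members, from each further list up to 5 called genes with the largest differences, a mean of at least 1 FPKM and no overlap between groups, the 5 genes nearest SSRP1, and genes overlapping a member, with exceptions stated where they occur. Alternatives were a pseudocount of 0.1, a mean FPKM of at least 1, scaling to equal sums or medians, quantile normalization, a replicate block, omission of each library, and the 3′UTR of the listed transcript.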

Additional observations from a re-analysis of the deposited data

How the results depend on the processing

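Among the members and the listed genes that were recomputed, no difference called in either fit changed direction under an alternative. Some member differences moved by more than the spread between replicates but kept their call. SSRP1 was −1.25 with FPKM scaled to equal sums, −1.25 with equal medians and −1.24 after quantile normalization. SUPT16H was 0.91 and SUPT6H −0.38 with either scaling. CHAF1B was 0.37 with a pseudocount of 0.1 and 0.22 after quantile normalization. ASF1B was not called with FPKM scaled to equal sums or medians (0.20 with either). Over all genes, 2948 were called lower and 3106 higher with equal medians and 3026 and 3043 after quantile normalization. HIRA, never called, ran from −0.05 to 0.11 over the libraries left out. The other histone chaperones called lower numbered 4, 6 and 4 with equal sums, equal medians and quantile normalization, against 2 (higher 9, 10 and 14, against 12), and the S-phase genes called lower numbered 2 after quantile normalization. Leaving out single libraries gave 0 S-phase genes called lower in each of the 6 cases and 1 to 2 replacement histone genes called higher, and the cause was not tested. SSRP1 then ran from −1.22 to −1.19, SUPT16H from 0.93 to 0.98 and their log2 ratio from −2.24 to −2.16, always with the same sign. Seed matches of at least 7 bases were found in 3 members with the longest 3′UTR and in 2 with that of the listed transcript, since NASP's listed transcript has no annotated 3′UTR.

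With the replicate number as a block, SSRP1 stayed at −1.21 and SUPT16H at 0.95, and 2 members were called lower and 3 higher, as without it. The block left ANP32E uncalled (limma adjusted p = 0.0652), as did scaling to equal sums (limma adjusted p = 0.0560), and 2097 genes of all tested were called lower and 2999 higher. It lowered the other chaperones called higher from 12 to 9, the elongation partners called lower from 6 to 4 and the S-phase genes called higher from 14 to 11. Over the libraries left out, 4 to 7 elongation partners were called lower. Whether libraries of the same number were prepared together is not given in the labels. Deviations of same-numbered libraries from their group means correlated at −0.0401, −0.0210 and −0.108 over 11504 genes. Those of differently numbered libraries correlated at −0.0691 to 0.110. Deviations cancel out within each group of 3 libraries, so these values cannot decide whether the libraries are paired. Depth limits CHAF1B and ASF1A most, which rest on about 191 to 384 fragments per library.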

Other observations

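The junction of a polyadenylation signal with a seed match, seen in SSRP1, was looked up over the table after its value was known. Of 14572 genes whose longest 3′UTR had at least 40 bases, 60.7% held AATAAA in the last 40 bases, and in 10 the signal ran into an 8mer there. Of the 9 other than SSRP1, 5 had a mean of at least 1 FPKM. Among these, 4 were called lower by limma: ZNF629 (difference −0.66, adjusted p = 0.000338), DNM2 (−0.65, adjusted p = 8.92e-05), DNAJC13 (−0.62, adjusted p = 0.000193) and SPOP (−0.57, adjusted p = 0.00433). PDCD10 was called higher (0.49, limma adjusted p = 0.00334). The 4 with a mean under 1 FPKM were not called. Among all 961 genes with an 8mer in the 3′UTR and a mean of at least 1 FPKM, 40.6% were called lower and 15.2% higher. SSRP1 had the largest difference of the 10, but it was chosen on this same comparison, so its rank is only a description.

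The neighbours that overlap a member were also read. UBXN6, which meets CHAF1A on the opposite strand over 20 exon bases, was higher, from 44.2 ± 0.412 to 68.0 ± 4.01 FPKM (SD, n = 3 each; difference 0.61, limma adjusted p = 0.000255). MRPL40, opposite HIRA with no shared exon base, was higher by 0.32 (limma adjusted p = 0.00608). MCM9 (opposite ASF1A over 5.80% of the ASF1A exon bases), MORC3 (beside CHAF1B) and SDF2 (opposite SUPT6H) were not called. Their differences were 0.12, 0.05 and −0.22 (limma adjusted p = 0.159, 0.519 and 0.121). SSRP1 shares 4.64% of its exon bases with the opposite-strand gene AP000781.1, which was not analysed here.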
